A study of Rattus norvegicus with 6 samples.

Results

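The amino acid carriers of the kidney proximal tubule were examined in renal cortex from male rats of the Sprague-Dawley (Crl:CD(SD)) stock as a set of 9 genes, Slc1a1, Slc3a1, Slc7a9, Slc6a18, Slc6a19, Slc6a20, Slc7a7, Slc7a8 and Slc36a2. The genes were named for their known role, at a time when earlier results of these data were known. Their probes were found by matching the transcript accession of each probe to the RefSeq gene table. This gave 14 probes for the 9 genes, out of 61537 non-control probes on the array. Slc6a20 carries the current rat symbol Slc6a20a and is called so below. Of these probes 13 were well above background on all 6 arrays and entered the test, covering 8 genes, and the single probe of Slc36a2 did not.

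The study compared 2 groups of 3 animals. Tricresyl phosphate, an organophosphate flame retardant and plasticiser, was given to 3 rats at 200 mg/kg/day for 4 weeks, and the vehicle corn oil was given to the other 3 for 4 weeks. The rats were 5 weeks old at purchase and ate the same basal diet. RNA of each animal was hybridised to its own 1-colour Agilent array, so replicates are animals, and 3 per group limit the precision of every value. The design asks how cortical transcript levels change with tricresyl phosphate.

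Nearly all amino acids filtered by the glomerulus are taken back in the proximal tubule. Carriers of the brush border membrane bring them into the cell, mostly by coupling to sodium or by exchange, and carriers of the basolateral membrane release them to the blood. Several carriers work as pairs of a heavy and a light chain, and inherited loss of single members in humans causes amino acids to be lost in the urine, as in cystinuria (SLC3A1 or SLC7A9), Hartnup disorder (SLC6A19) and lysinuric protein intolerance (SLC7A7).

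Promoter windows are shown for the genes on which the results below turn, the 2 carriers whose brightest probe was higher in every tricresyl phosphate animal (Slc6a20a and Slc7a7), and for the main carrier of neutral amino acids (Slc6a19). Each window holds 250 bases before and 50 bases after the gene start, from RefSeq on build GRCr8, in the direction of the gene. Capitals mark matches on either strand to the nuclear receptor half-site AGGTCA, the TATA box TATAAA and the ATF4 amino acid response core TGATGNAA.
Slc6a20a, chr8:132199851-132200150 (- strand): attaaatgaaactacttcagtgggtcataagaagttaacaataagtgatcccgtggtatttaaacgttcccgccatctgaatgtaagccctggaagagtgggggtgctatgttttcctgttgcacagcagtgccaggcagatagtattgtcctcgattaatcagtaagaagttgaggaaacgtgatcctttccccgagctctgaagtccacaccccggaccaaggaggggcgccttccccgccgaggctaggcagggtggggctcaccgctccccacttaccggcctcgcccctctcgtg
Slc7a7, chr15:31835634-31835933 (- strand): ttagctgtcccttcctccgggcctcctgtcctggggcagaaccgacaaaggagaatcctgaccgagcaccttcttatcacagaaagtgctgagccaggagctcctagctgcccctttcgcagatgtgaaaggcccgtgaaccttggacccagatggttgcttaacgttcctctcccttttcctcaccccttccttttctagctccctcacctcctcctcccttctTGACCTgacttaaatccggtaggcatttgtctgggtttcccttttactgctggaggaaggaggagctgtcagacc
Slc6a19, chr1:31414494-31414793 (+ strand): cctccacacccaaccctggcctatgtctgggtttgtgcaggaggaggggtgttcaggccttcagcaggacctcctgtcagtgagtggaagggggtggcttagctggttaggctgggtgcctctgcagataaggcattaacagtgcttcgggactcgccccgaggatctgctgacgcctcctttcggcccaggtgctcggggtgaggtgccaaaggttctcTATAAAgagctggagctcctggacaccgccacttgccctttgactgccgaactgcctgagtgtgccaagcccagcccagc
The nuclear receptor half-site is bound by many nuclear receptors, and ATF4 drives the response to amino acid shortage. The window of Slc6a19 held a TATA box beginning 30 bases before the start. The window of Slc7a7 held the nuclear receptor half-site 25 bases before the start. That of Slc6a20a held none of the 3 motifs. Among all 33469 promoter windows of the same length, 16.2% held the nuclear receptor half-site, 14.2% the TATA box and 3.98% the ATF4 core. Windows were available for 8 of the 9 carriers, and 2 of these 8 held the nuclear receptor half-site, 2 the TATA box and 0 the ATF4 core. A match describes letters only.

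Levels are given as log2 of the processed spot signal minus the array's 75th percentile, so a level of 0 equals the signal at that percentile. Levels of different probes are not comparable with each other, and every comparison is of 1 probe between animals. Differences are tricresyl phosphate minus corn oil on the log2 scale, tested two-sided with limma, with p-values adjusted by the Benjamini-Hochberg method over all 43099 probes that were well above background on at least 3 arrays. Where a gene has several probes, its brightest is described first.

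None of the carriers passed the threshold of an adjusted limma p under 0.05. The count was 0 of 13 carrier probes, against a background of 0% of all tested probes, whose smallest adjusted limma p was 0.147. At an unadjusted limma p under 0.05 there were 2 carrier probes, both of Slc6a20a, both higher, where 5.42% of all tested probes reached it, 2.04% higher and 3.39% lower. All tricresyl phosphate values lay outside the range of the corn oil values in 5 of the 13 carrier probes, 4 higher and 1 lower, where 11.7% of all tested probes were separated so, 4.68% higher and 7.07% lower. Probes of 1 gene share their transcript, and the 5 probes belong to the 4 genes Slc6a20a, Slc7a7, Slc7a8 and Slc1a1. For a single probe, separated groups give an exact two-sided permutation p of 0.1, the smallest that 3 against 3 animals allow. With 3 animals a group, 95% intervals of the carriers' brightest probes reached 0.217 (narrowest) to 0.333 (widest) to each side of the difference. These widths are before adjustment for the number of probes tested and are no detection limit. Slc6a20a did not pass the adjusted threshold at a difference of 0.44.

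The arrays carried 41503 to 43823 probes well above background each, and arrays correlated at 0.988 to 0.99 within groups and 0.987 to 0.991 between groups over the tested probes. Corn oil replicate 1 was on slide 1 and the other 5 arrays were on slide 2, with a scan time for each slide, so within slide 2 there were 3 tricresyl phosphate and 2 corn oil animals. Cell type markers were set beside the tissue label, and all 20 proximal tubule markers were measured. Markers of other cell types were measured too, so being measured does not check the label. Slc34a1, the phosphate carrier of the brush border, was at 8.41 ± 0.20 in tricresyl phosphate animals and 8.49 ± 0.04 in corn oil animals (SD, n = 3 each). The endocytic receptor gene Lrp2 was at 6.35 ± 0.10 in tricresyl phosphate animals and 6.48 ± 0.05 in corn oil animals (SD, n = 3 each). As a list, 16 of the 20 proximal tubule markers were lower and 4 higher, where 59.2% of all 31637 genes were lower on their brightest probe. The median was −0.08 for the list and −0.04 over all these genes. The mean level of the list was 5.62 to 5.68 in tricresyl phosphate animals and 5.71 to 5.77 in corn oil animals, without overlap, and 0 of its members passed. Taken singly, groups were separated in 2 of the 20 markers, where 11.8% of all genes were. An unadjusted limma p under 0.05 was reached by 0 of the 20, where 5.55% of all genes reached it. The part of this small shift of the list mean in the carrier values was not tested. In bulk tissue, fewer cells of a type and less RNA per cell cannot be told apart.

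**Figure D1:**
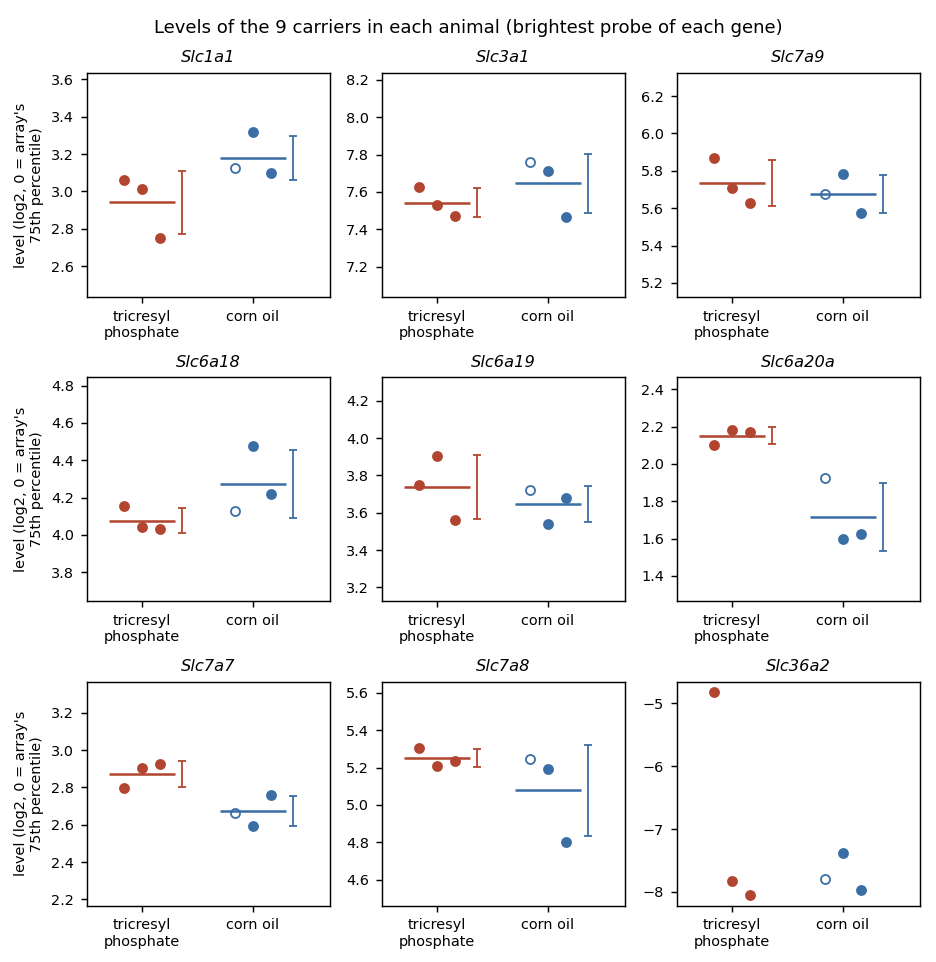
Level of each carrier in each animal (log2, 0 = the array's 75th percentile), tricresyl phosphate left and corn oil right, with the group mean (line) and SD (bar, n = 3). The open point is corn oil replicate 1, alone on slide 1, and Slc36a2 has no mean because only its highest point, tricresyl phosphate replicate 1, was well above background. The groups are separated in the panels of Slc6a20a and Slc7a7 (higher) and Slc1a1 (lower) and overlap in the others.

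The imino acid carrier gene Slc6a20a showed the largest difference of the 8 measured carriers, with higher values in all 3 tricresyl phosphate animals on both of its probes. Its protein takes up proline and related imino acids with sodium. The brighter probe was at 2.10, 2.18 and 2.17 in tricresyl phosphate animals, against 1.93, 1.60 and 1.62 in corn oil animals. The lowest tricresyl phosphate animal lay above the highest corn oil animal, which was the one on slide 1. The means were 2.15 ± 0.04 with tricresyl phosphate and 1.71 ± 0.18 with corn oil (SD, n = 3 each), a difference of 0.44 ± 0.12 (SE) or 1.35-fold, with a 95% interval from 0.16 to 0.72 and a limma adjusted p of 0.816. The dimmer probe was at −1.46, −1.47 and −1.32 in tricresyl phosphate animals, against −1.52, −2.26 and −2.05 in corn oil animals. Here the groups were separated narrowly, since corn oil replicate 1 again lay nearest to the tricresyl phosphate animals. The difference of this probe was 0.53 ± 0.20 (SE), with a limma adjusted p of 0.816. Within the shared slide the differences of the brighter and the dimmer probe were 0.54 ± 0.09 (SE) and 0.74 ± 0.12 (SE), each with a limma adjusted p of 0.946. The gene lies beside Slc6a20b in the RefSeq table, for which no probe was named here, and whether the probes of Slc6a20a also bind its transcript was not tested.

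Slc36a2, the other imino acid and glycine carrier of the brush border in the set, was not measurable in most animals. Its probe was at −4.81, −7.83 and −8.06 in tricresyl phosphate animals, against −7.79, −7.39 and −7.97 in corn oil animals. It was well above background only on the array of tricresyl phosphate replicate 1, and the lowest signals that counted as well above background lay between −6.03 and −5.53 on the 6 arrays. The other 5 values lay below this range, at a signal near background, so no fold is given. The probe did not enter the main test.

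The basolateral carriers of the set, Slc7a7 and Slc7a8, both had positive differences. They are light chains that exchange amino acids across the basolateral membrane when joined to the heavy chain encoded by Slc3a2. Slc7a7, which releases cationic amino acids in exchange for neutral ones and sodium, was at 2.79, 2.90 and 2.92 in tricresyl phosphate animals, against 2.66, 2.59 and 2.76 in corn oil animals. The groups did not overlap, with a gap between tricresyl phosphate replicate 1 and corn oil replicate 3 that is smaller than the range within either group. The means were 2.87 ± 0.07 with tricresyl phosphate and 2.67 ± 0.08 with corn oil (SD, n = 3 each), a difference of 0.20 ± 0.09 (SE) with a 95% interval from −0.02 to 0.42 and a limma adjusted p of 0.816.

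Slc7a8, an exchanger of neutral amino acids, was at 5.30, 5.21 and 5.24 on its brighter probe in tricresyl phosphate animals, against 5.24, 5.19 and 4.80 in corn oil animals. Corn oil replicate 3 alone was low, and the other 2 corn oil animals lay beside the tricresyl phosphate animals. The difference was 0.17 ± 0.14 (SE) with a limma adjusted p of 0.826, and it was 0.031 without corn oil replicate 3. The dimmer probe gave 3.35, 3.25 and 3.26 in tricresyl phosphate animals, against 3.196, 3.20 and 2.69 in corn oil animals. It showed the same low animal, with a difference of 0.26 ± 0.16 (SE) and a limma adjusted p of 0.816. Their heavy chain gene Slc3a2 was at 4.66, 4.64 and 4.84 in tricresyl phosphate animals, against 4.58, 4.54 and 4.57 in corn oil animals. The groups of Slc3a2 were separated, and its difference of 0.15 ± 0.09 (SE) had a limma adjusted p of 0.816.

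The acidic amino acid carrier gene Slc1a1 had lower values in all 3 tricresyl phosphate animals. Its protein takes up glutamate and aspartate from the filtrate. Its probe was at 3.06, 3.02 and 2.75 in tricresyl phosphate animals, against 3.12, 3.32 and 3.096 in corn oil animals. The highest tricresyl phosphate animal lay just under the lowest corn oil animal, and tricresyl phosphate replicate 3 was the lowest of the 6. The means were 2.94 ± 0.17 with tricresyl phosphate and 3.18 ± 0.12 with corn oil (SD, n = 3 each), a difference of −0.24 ± 0.12 (SE) or 0.85-fold, with a 95% interval from −0.53 to 0.06 and a limma adjusted p of 0.816. Within the shared slide the difference was −0.26 ± 0.14 (SE), and without tricresyl phosphate replicate 3 it was −0.14.

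Slc6a19 and Slc6a18, the neighbouring genes of sodium-coupled neutral amino acid carriers, had differences of opposite sign and overlapping groups. Slc6a19, the main brush border carrier of neutral amino acids, was at 3.75, 3.91 and 3.56 in tricresyl phosphate animals, against 3.72, 3.54 and 3.68 in corn oil animals. The highest animal was tricresyl phosphate replicate 2, the groups overlapped, and the difference was 0.09 ± 0.12 (SE) with a limma adjusted p of 0.876. It was 0.012 without tricresyl phosphate replicate 2 and 0.183 without tricresyl phosphate replicate 3. Slc6a18, a carrier of glycine and other neutral amino acids in the mouse, was at 4.15, 4.04 and 4.03 on its brightest probe in tricresyl phosphate animals, against 4.13, 4.48 and 4.22 in corn oil animals. Only corn oil replicate 1 overlapped the tricresyl phosphate animals. The difference was −0.20 ± 0.12 (SE) with a 95% interval from −0.48 to 0.09 and a limma adjusted p of 0.816, and within the shared slide it was −0.27 ± 0.12 (SE). Without corn oil replicate 2, the highest of the 6, it was −0.097. The other probes of Slc6a18 differed by −0.16 ± 0.11 (SE) and −0.03 ± 0.14 (SE), with limma adjusted p-values of 0.816 and 0.974. The difference of −0.03 lay between −0.17 and 0.05 with an animal left out, so its direction rested on single animals. Whether the differences of the neighbouring genes differ from each other was not tested.

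The accessory protein collectrin, encoded by Cltrn, brings Slc6a19 and Slc6a18 proteins to the brush border. Cltrn was at 7.27, 7.21 and 7.41 in tricresyl phosphate animals, against 7.58, 7.49 and 7.48 in corn oil animals. The tricresyl phosphate animals were all below the corn oil animals, with a difference of −0.22 ± 0.09 (SE), a 95% interval from −0.44 to 0.003 and a limma adjusted p of 0.816. Its other probe differed by −0.17 ± 0.10 (SE) with a limma adjusted p of 0.816.

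Slc3a1 and Slc7a9, the heavy and light chain of the brush border exchanger for cystine and cationic amino acids, showed the smallest differences of the set together with Slc6a19. The brighter probe of Slc3a1 was at 7.63, 7.53 and 7.47 in tricresyl phosphate animals, against 7.76, 7.71 and 7.47 in corn oil animals. The groups overlapped through corn oil replicate 3, and the difference was −0.10 ± 0.11 (SE) with a 95% interval from −0.37 to 0.17 and a limma adjusted p of 0.86. The dimmer probe differed by −0.01 ± 0.10 (SE) with a limma adjusted p of 0.991. Slc7a9 was at 5.87, 5.71 and 5.63 in tricresyl phosphate animals, against 5.67, 5.78 and 5.58 in corn oil animals. Its groups overlapped, with a difference of 0.06 ± 0.11 (SE), a 95% interval from −0.20 to 0.31 and a limma adjusted p of 0.92.

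**Figure D2:**
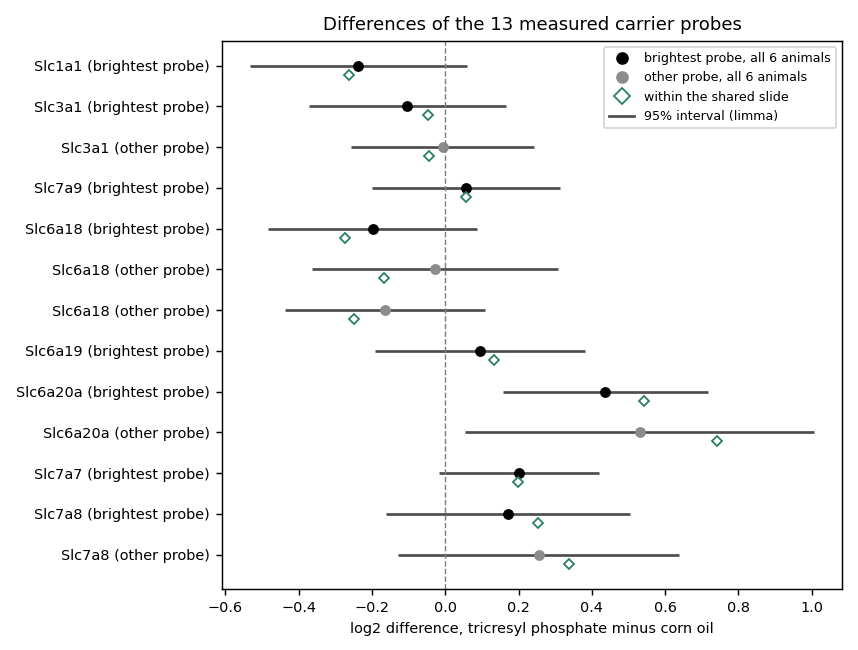
Log2 difference, tricresyl phosphate minus corn oil, of each of the 13 tested carrier probes (circles) with the 95% interval from limma (lines), and the difference within the shared slide (diamonds). The intervals of both Slc6a20a probes, from 0.16 to 0.72 and from 0.05 to 1.01, lie above 0 before adjustment for the number of probes tested, and all others include 0.

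The 8 measured carriers gave 5 positive and 3 negative differences, with a median of 0.08. Over the brightest probe of all 31637 genes 40.8% of differences were positive and 59.2% negative, and the median was −0.04. The positive ones were those of Slc6a20a, Slc7a7, Slc7a8, Slc6a19 and Slc7a9, and the negative ones those of Slc1a1, Slc6a18 and Slc3a1.

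Other amino acid carriers and accessory subunits, a list of 32 genes that includes Cltrn and Slc3a2, were measured for 26. Of these 14 had positive and 12 negative differences, the median was 0.03 and 0 passed. Groups were separated in 3 of the 26, where 11.8% of all genes were. An unadjusted limma p under 0.05 was reached by 1 of the 26, where 5.55% of all genes reached it. That gene was Slc6a12, a betaine and GABA carrier, which was at −2.22, −2.23 and −2.196 in tricresyl phosphate animals, against −1.92, −2.01 and −2.01 in corn oil animals. Its values were closely grouped and separated, with a difference of −0.24 ± 0.08 (SE) and a limma adjusted p of 0.816, while its dimmer probe differed by −0.04 ± 0.13 (SE) with overlapping groups. Slc38a3, a basolateral glutamine carrier, differed by −0.65 ± 0.35 (SE), and its tricresyl phosphate values of −0.89, −1.996 and −1.53 overlapped the corn oil values of −1.40, −0.54 and −0.53. Slc38a7, a lysosomal amino acid carrier, differed by 0.21 ± 0.12 (SE) on its brighter probe and by −0.06 ± 0.11 (SE) on its dimmer one, with overlapping groups. The brighter probes of both genes had a limma adjusted p of 0.816. Slc16a10, a basolateral carrier of aromatic amino acids, differed by 0.08 ± 0.13 (SE) with a limma adjusted p of 0.907.

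Slc7a13, a rodent light chain that joins the Slc3a1 heavy chain in the last segment of the proximal tubule, varied more between animals of 1 group than any of the 8 measured carriers. It was at 2.70, 2.99 and 3.97 in tricresyl phosphate animals, against 1.99, 4.52 and 2.79 in corn oil animals. Corn oil replicate 2 and tricresyl phosphate replicate 3 were highest and corn oil replicate 1 was lowest. The groups overlapped fully, with a difference of 0.12 ± 0.68 (SE) and a limma adjusted p of 0.977. Its other probe was also highest in the same 2 animals and lowest in corn oil replicate 1.

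Small peptides are a second route of amino acid recovery, through peptidases of the brush border and peptide carriers. All 13 genes of this list were measured, 4 with positive and 9 with negative differences, a median of −0.04 and 0 passing. Slc15a2, the high-affinity peptide carrier of the kidney, was at −0.48, −0.52 and −0.20 in tricresyl phosphate animals, against −0.80, −0.73 and −1.13 in corn oil animals. The tricresyl phosphate animals all lay above the corn oil animals, with a difference of 0.49 ± 0.15 (SE), a 95% interval from 0.13 to 0.85 and a limma adjusted p of 0.816. It was the 1 gene of the 13 with an unadjusted limma p under 0.05, where 5.55% of all genes reached it. It was also the 1 gene of the 13 with separated groups, where 11.8% of all genes were. The peptidase genes Ggt1, Dpep1 and Ace differed by −0.17 ± 0.11 (SE), −0.29 ± 0.19 (SE) and −0.38 ± 0.27 (SE), each with overlapping groups and a limma adjusted p of 0.816.

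**Figure D3:**
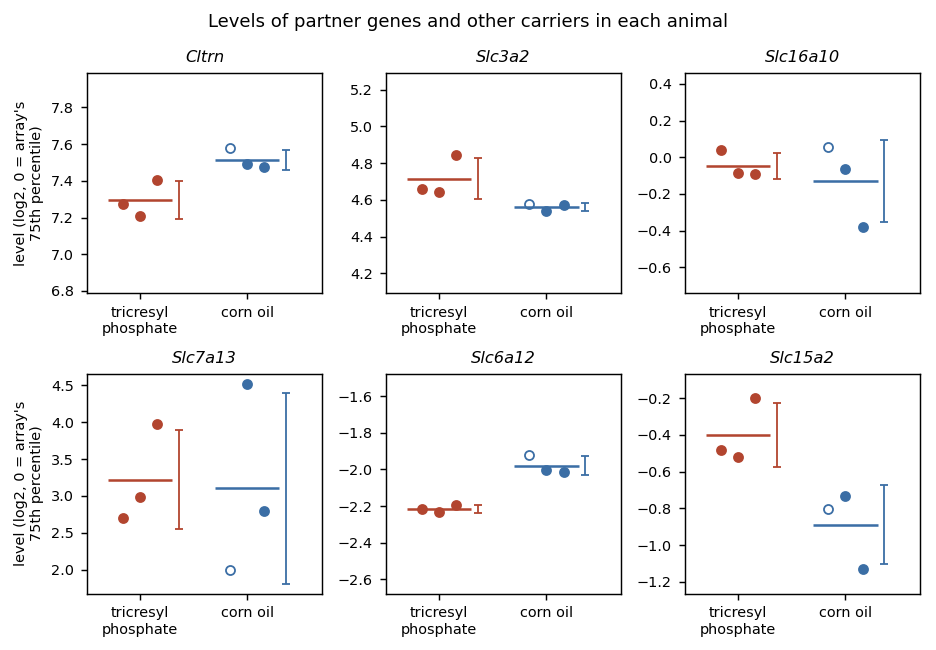
Level of partner genes and other carriers in each animal (log2, 0 = the array's 75th percentile), drawn as for the carriers with group mean (line) and SD (bar, n = 3), tricresyl phosphate left and corn oil right. The open point is corn oil replicate 1, alone on slide 1. The groups are separated for Cltrn, Slc3a2 and Slc6a12 (3 of 26 measured genes of their list) and Slc15a2 (1 of 13). Over all genes 11.8% were separated so. Slc7a13 spans 1.99 to 4.52 within the corn oil group alone.

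**Figure D4:**
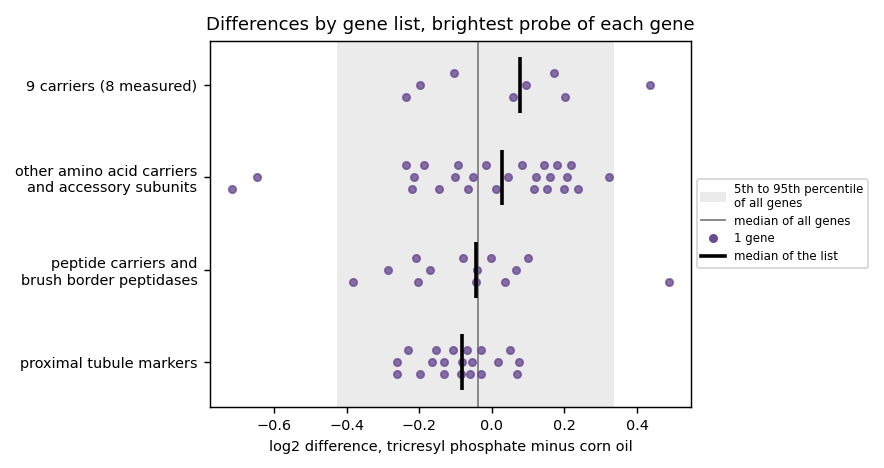
Log2 difference, tricresyl phosphate minus corn oil, of each gene's brightest probe (points) in 4 lists, with the list median (black line), the median of all 31637 genes (grey line) and their 5th to 95th percentile (shaded). Of the 8 measured carriers only Slc6a20a, at 0.44, lies outside the shaded range. Of the 20 proximal tubule markers 16 are below 0, where 59.2% of all genes are.

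Markers of other cell types were set beside these values. Mean list levels of tricresyl phosphate and corn oil animals overlapped for podocytes (1.23 to 1.68 with tricresyl phosphate and 1.24 to 1.45 with corn oil), for the thick ascending limb and distal tubule (3.19 to 3.47 with tricresyl phosphate and 3.19 to 3.37 with corn oil), and for the endothelium (0.70 to 0.99 with tricresyl phosphate and 0.81 to 0.89 with corn oil). They overlapped too for the collecting duct, at 3.85 to 3.98 with tricresyl phosphate and 3.61 to 3.87 with corn oil, and for leukocytes, at 0.09 to 0.20 with tricresyl phosphate and 0.004 to 0.28 with corn oil. Of the 8 measured collecting duct markers 6 were higher and 2 lower, with a median difference of 0.11. Groups were separated in 3 of the 8, where 11.8% of all genes were. An unadjusted limma p under 0.05 was reached by 1 of the 8, where 5.55% of all genes reached it. Of the 7 measured thick ascending limb and distal tubule markers 5 were higher and 2 lower, with a median difference of 0.05, and the groups overlapped in each. Red cell markers were at 5.22 to 5.63 with tricresyl phosphate and 5.49 to 5.72 with corn oil. Of the 5 measured 4 were lower and 1 higher, with a median difference of −0.27. The higher 1 was Slc4a1, at a difference of 0.08, which is also counted among the collecting duct markers. Groups were separated in 2 of the 5, where 11.8% of all genes were, and 2 had an unadjusted limma p under 0.05, where 5.55% of all genes did. In each of these lists 0 markers passed after adjustment. The collecting duct water channel gene Aqp2 was at 6.31 to 6.79 with tricresyl phosphate and 6.38 to 6.82 with corn oil. Umod, which encodes uromodulin of the thick limb, was at 7.47 to 8.06 with tricresyl phosphate and 7.71 to 8.18 with corn oil. The leukocyte gene Ptprc was at −0.12 to 0.02 with tricresyl phosphate and −0.27 to 0.10 with corn oil. Values of these genes, and of the proximal tubule anion carrier gene Slc22a6 at 8.04 to 8.26 with tricresyl phosphate and 8.15 to 8.25 with corn oil, overlapped between groups. Hepatocyte markers ranged most, from −1.62 to −0.35 with tricresyl phosphate and from −3.07 to 0.03 with corn oil. Like Slc7a13, they were highest in tricresyl phosphate replicate 3 and corn oil replicate 2 and lowest in corn oil replicate 1. The albumin gene Alb was at −0.11, −0.15 and 2.21 with tricresyl phosphate and −2.47, 2.62 and −1.61 with corn oil. The part of these lists in the carrier values was not tested.

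**Figure D5:**
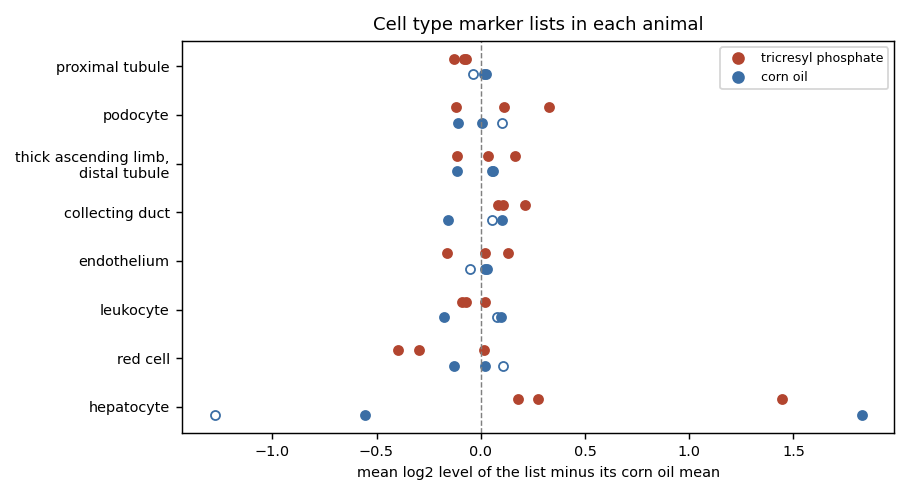
Mean log2 level of each cell type marker list in each animal, minus the mean of its corn oil animals, tricresyl phosphate above and corn oil below within each list. The open point is corn oil replicate 1. The groups are separated only for the proximal tubule list mean, while 2 of its 20 genes are separated singly, where 11.8% of all genes are. The hepatocyte list spreads most, from −3.07 to 0.03 in level within the corn oil group.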

How the data were processed

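Per the labels' protocols, total RNA was labelled with Cy3. The software was Agilent Feature Extraction (10.7 in the submitters' processing notes, 10.7.1.1 in the file headers). Its intensity values, as deposited, are linear, after background subtraction and spatial detrending within the array, and flags mark outlier, saturated and well above background spots. The authors' value table holds the same intensity divided by 1 number per array, close to its 75th percentile.

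Each processed signal was turned to log2 minus the array's 75th percentile over 61537 non-control probes. No spot was saturated, and 77 outlier spots, none of a carrier, were set missing. Accessions were matched without version to RefSeq (GRCr8), giving a symbol for 28206 probes and none for 33331. Array annotation used another build, so the only coordinates given are those of RefSeq promoter windows. Probes well above background on at least 3 of 6 arrays (43099) were fitted with limma 3.58.1 (lmFit, eBayes; R 4.3.3), without covariates. The fit was also run on simulated data with changes larger than any carrier difference, so that run does not bear on differences of their size.

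Members and lists were chosen with earlier results of these data known. Named were all members with every probe, 5 partner genes, 8 cell markers, and the 4 smallest p-values of the other 2 lists; some of these are not reported here. Alternatives were other normalizations (normexp with an offset of 50 used the median spot signal), the value table, filters, probe rules, variance model, slide and replicate blocks, and each animal left out.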

Additional observations from a re-analysis of the deposited data

How the results depend on the processing

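Limits are the 3 animals a group, 1 corn oil animal alone on its slide, and probes near background such as that of Slc36a2. Under 10 other settings and with each of the 6 animals left out, 0 carrier probes passed in every fit; the slide block is the same fit as leaving out corn oil replicate 1. On their brightest probes the differences of Slc1a1, Slc6a18, Slc6a19, Slc6a20a, Slc7a7 and Slc7a8 kept their direction, but with an animal left out they ranged from −0.296 to −0.141 for Slc1a1, −0.273 to −0.097 for Slc6a18, 0.012 to 0.183 for Slc6a19 and 0.031 to 0.253 for Slc7a8. That of Slc6a20a ranged from 0.377 to 0.542, with adjusted limma p-values from 0.681 to 0.947. The difference of Slc3a1 turned to 0.004 under quantile normalization, and that of Slc7a9 ranged from −0.01 (without tricresyl phosphate replicate 1) to 0.112 with an animal left out. The cause was not tested. The median over carriers was 0.156 under quantile normalization and 0.019 to 0.144 with an animal left out. Over all probes 2 passed with normexp and quantile normalization, 2 with an intensity trend and robust variance, and 0 to 1 with an animal left out (1 without tricresyl phosphate replicate 3). Same-numbered animals did not deviate together (correlations of 0.104, −0.06 and −0.017), and with the replicate block 0 probes passed over all and 0 of the carriers.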

Other observations

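Hnf4a, a transcription factor of the proximal tubule, was measured among its markers. It was at 3.84, 4.14 and 3.86 in tricresyl phosphate animals, against 4.16, 3.66 and 4.12 in corn oil animals, with overlapping groups and a difference of −0.03 ± 0.17 (SE). Its limma adjusted p was 0.976, and it was named after its values were seen.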
